A study of Canis lupus familiaris with 17 samples.

Results

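Antibody secretion was followed in circulating canine leukocytes through 10 genes: JCHAIN, MZB1, TXNDC5, FKBP11, DERL3, IRF4, PRDM1, XBP1, TNFRSF17 and CCR10. They were chosen by name, with earlier results of these data known. All 10 were found among the 20257 genes counted in each of 17 matrices, 1 per dog. The dogs were 7 healthy, middle-aged, client-owned animals of several breeds and 10 treatment-naïve animals with a primary osteosarcoma (OS), all labelled wild type and each sampled once, so the dog was the replicate. Both sexes were in each group, and the dogs with OS had a wider age range that reached older ages. The study names this age difference as a possible confounder of its comparison. Leukocytes were collected from blood by Ficoll density centrifugation and sequenced with the 10x Genomics 3' chemistry, which counts unique molecular identifiers (UMIs, 1 per captured RNA molecule) for each gene in each cell barcode. No sort for plasma cells was made, so those described here are the few that a general leukocyte preparation held.

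When a B cell becomes a plasma cell it stops its B cell program and turns into a factory for immunoglobulin. The transcription factors IRF4 and PRDM1 (Blimp-1) drive that switch, and XBP1, the factor of the unfolded protein response, enlarges the endoplasmic reticulum (ER) in which antibody chains are folded, joined and checked. JCHAIN is the joining chain that links immunoglobulin units into IgM pentamers and IgA dimers, while MZB1, TXNDC5, FKBP11 and DERL3 work in the ER on folding, disulfide bonds, prolyl bonds and removal of misfolded chains. TNFRSF17 (BCMA) is the receptor through which the cytokine APRIL keeps plasma cells alive, and CCR10 is the receptor that guides them towards CCL27 and CCL28 in epithelia. Plasma cells are rare in blood, where those seen are mostly young cells on their way to bone marrow or mucosa. Plasmacytoid dendritic cells (pDCs), which secrete interferon, also carry a large ER.

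The matrices held 93013 barcodes, between 1332 and 7748 per dog, and between 7740230 and 56510134 UMIs per dog. Limits on genes, UMIs and mitochondrial counts left 84345 barcodes, of which 3938 were removed as doublets, and 75659 cells were analysed after clusters of platelets, erythrocytes and mixed droplets had been set aside. Of 91883 distinct barcode sequences, 1118 occurred in 2 matrices and 6 in 3. Cells were clustered without the 10 genes, and clusters were named from other markers, so a name such as plasma cell-like means resemblance. Clusters with 3852 cells stayed unnamed, and statements on classes leave them out. Because the classes came from clustering the same cells, differences between classes are described and not tested.

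Plasma cell-like cells were few and deeply sampled. They numbered 633, from 17 dogs, with 3 to 100 cells per dog (median 31) or 0.056 to 2.34% of a dog's cells (median 0.697%). B cell-like cells numbered 6795 and pDC-like cells 245. The upper limits of 4500 genes and 20000 UMIs per cell bore on plasma cells more than on other classes: with limits of 8000 genes and 60000 UMIs the class held 1431 cells, 2.26-fold more, while B cell-like cells went from 6795 to 6830, and the mean levels of the 10 genes were between 0.721 and 0.959 of those given below. All 15 plasma cell markers were above 1 CPM (counts per 1000000 UMIs) in the plasma cell-like cells, with a summed level between 7806 and 50930 CPM (median 25673). POU2AF1, a B lineage coactivator, averaged 296 CPM, IGHM, the heavy chain of IgM, 4429 CPM, and SDC1 (CD138), the usual surface marker of plasma cells in tissue, was near 0 at 1.082 CPM. The kappa chain row IGKC ranged from 0 to 42017 CPM between dogs. Markers of other cells were low or mixed: CD3E of T cells averaged 5.27 CPM, LYZ of myeloid cells 33.5 CPM, PAX5 of B cells 4.46 CPM and MS4A1 (CD20) 72.5 CPM, and 10 of 12 B cell markers were above 1 CPM with a summed level between 3750 and 7147 CPM (median 5377), against 8188 to 11845 CPM in B cell-like cells. The sum did not mark B cells, since it was 3955 to 10311 CPM in CD4 T cells and 2359 to 4801 CPM in monocytes. Whether B cells had been caught in the class was not tested. In pDC-like cells 11 of 12 pDC markers were above 1 CPM, with a summed level between 7412 and 9494 CPM (median 8665). Plasma cell markers summed to between 2606 and 3913 CPM there (median 3170), against 808 to 2535 CPM (median 1746) in B cell-like cells. Whether plasma cells had been caught among the pDC-like cells was not tested.

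All 10 genes had their highest mean level in plasma cell-like cells, over the 14 dogs (7 healthy, 7 with OS) with at least 10 such cells. JCHAIN, MZB1, TXNDC5, FKBP11, DERL3 and CCR10 are in the study's own short list of plasma cell genes, made from the healthy dogs. Their place at the top is therefore no finding, and the other genes were also chosen with earlier results of these data known. For 9 of the 10 the lowest dog's plasma cell-like level was above the highest dog's level in the class that came second. The exception was IRF4, through the dendritic level of 1 dog with 17 such cells. For how many of all genes highest in this class the same held was not counted, so the 9 of 10 is a description. Which class came second differed by gene: B cell-like cells for JCHAIN and TNFRSF17, pDC-like cells for MZB1 (below B cell-like cells with wider upper limits per cell), TXNDC5, XBP1, FKBP11 and DERL3, other dendritic cells for IRF4, CD8 T or NK cells for PRDM1 and, by a mean that rested on 1 dog, a small group of other T cells for CCR10. Levels are sums of UMIs per dog and class scaled to 1000000 UMIs, and since the 3' counts were not scaled by gene length, no gene's level is set against another's.

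**Figure D1:**
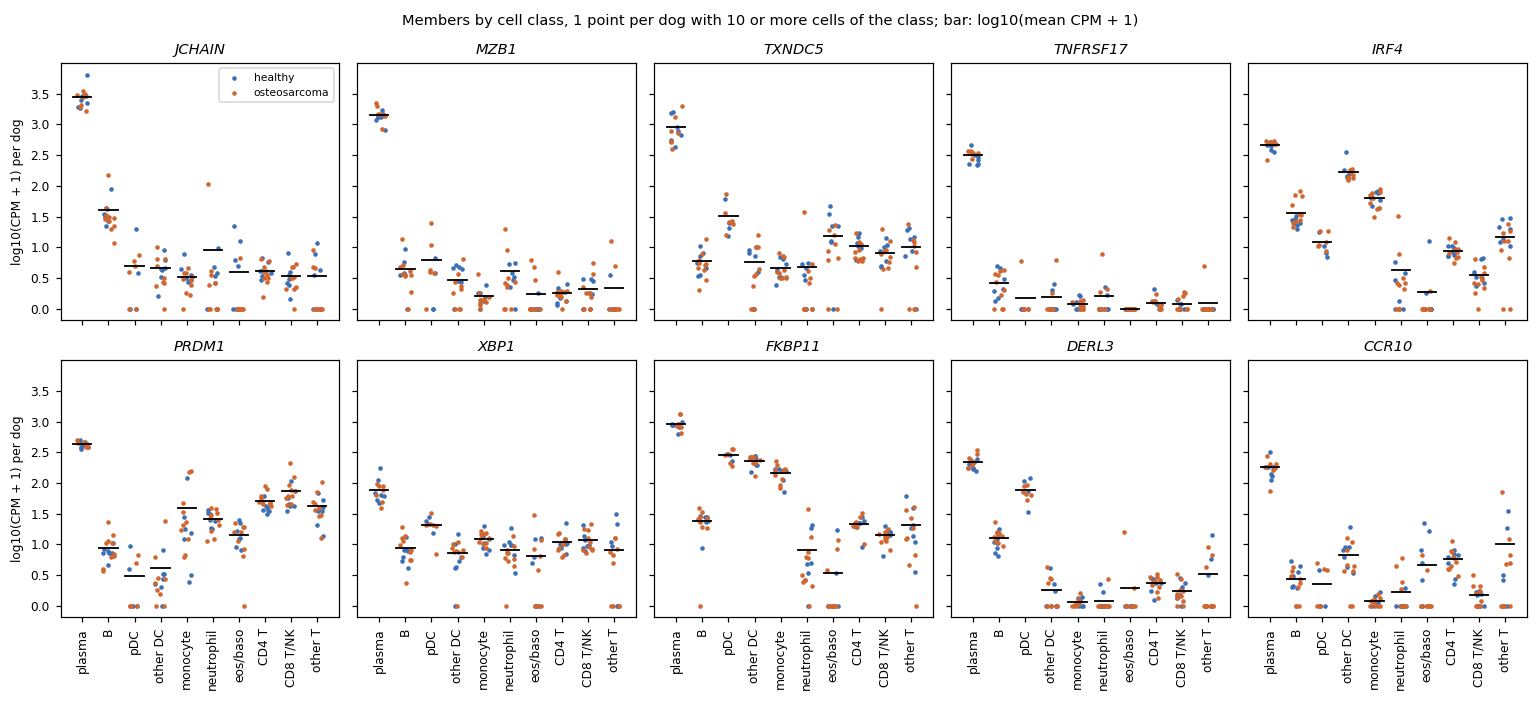
Level of each of the 10 genes per dog in each cell class. Each panel is 1 gene, the x axis lists the classes, the y axis is log10(CPM + 1), each point is 1 dog with at least 10 cells of the class and each bar marks log10 of the mean CPM + 1. In every panel the plasma cell-like mean is highest, with JCHAIN at a mean of 2782 CPM against 39.4 CPM in B cell-like cells. For IRF4 the other dendritic point of healthy dog 2 lies above the lowest plasma cell-like point. IRF4, PRDM1, XBP1 and FKBP11 also show points well above 0 in myeloid or T cells.

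JCHAIN (ENSCAFG00000028568) ranged from 1686 to 6448 CPM (median 2662) over the 14 dogs, with a mean of 2782 ± 1195 (SD). The top value was that of healthy dog 2, which had 11 plasma cell-like cells, and the other 13 dogs lay at 3483 CPM or below. B cell-like cells followed at 39.4 ± 33.1 CPM (SD, n = 17), 70.7-fold lower, with dogs between 10.9 and 151 CPM (median 29.6). The ranges of the plasma cell-like and B cell-like levels did not overlap. All further classes with more than 1 dog averaged 7.87 CPM or less, and neighbours in that order overlapped between dogs. The 7.87 CPM was that of neutrophils and rested on 1 barcode of OS dog 5 (106 CPM), with the other dogs at 8.88 CPM or below. In pDC-like cells JCHAIN averaged 3.998 ± 5.75 CPM (SD, n = 10), close to the 3.11 ± 1.39 CPM of CD4 T cells (n = 17), although in human blood JCHAIN is a known pDC transcript. The pDC-like mean rested in part on healthy dog 4 at 19.0 CPM, from 4 UMIs, with the other dogs between 0 and 6.41 CPM.

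MZB1 (ENSCAFG00000005693), a partner of the ER chaperone HSP90B1 in folding antibody chains, ranged from 825 to 2270 CPM (median 1398) in plasma cell-like cells. Its mean of 1433 ± 386 CPM was 281-fold above the next class, the pDC-like cells at 5.09 ± 7.16 CPM (n = 10), which did not separate from B cell-like cells at 3.44 ± 3.04 CPM (n = 17). With the wider upper limits per cell B cell-like cells were above pDC-like cells, at 14.3 CPM against 5.58 CPM, with 1203 CPM in plasma cell-like cells. TXNDC5 (ENSCAFG00000009582), a protein disulfide isomerase of the ER, ranged from 399 to 2005 CPM (median 744), the widest relative range of the 10 genes. Its mean of 910 ± 500 CPM was 28.8-fold above that of pDC-like cells (31.6 ± 19.8 CPM), and pDC-like levels overlapped with those of eosinophils or basophils (14.3 ± 12.7 CPM, n = 16).

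FKBP11 (ENSCAFG00000008795), an ER prolyl isomerase, was less restricted. It ranged from 625.2 to 1330 CPM (median 887; mean 911 ± 199) in plasma cell-like cells, followed by pDC-like cells at 279 ± 56.2 CPM, other dendritic cells at 230 ± 44.4 CPM (n = 16) and monocytes at 145 ± 40.8 CPM (n = 17). The plasma cell-like and pDC-like ranges did not overlap, the pDC-like, dendritic and monocyte ranges did, and B cell-like cells averaged only 22.8 ± 8.72 CPM, 6.35-fold below monocytes and with no overlap. DERL3 (ENSCAFG00000014095), of the machinery that takes misfolded chains out of the ER, ranged from 155 to 340 CPM (median 206; mean 218 ± 53.4). By the ratio of mean levels DERL3 was the gene that pDC-like cells shared most. Their 75.6 ± 25.5 CPM, from 33.2 to 119 CPM, was 2.88-fold below plasma cell-like and 6.49-fold above B cell-like cells (11.7 ± 4.12 CPM), with no overlap on either side. By the share of pDC-like cells with a UMI, FKBP11 (93.5%) was ahead of DERL3 (61.2%).

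Of the transcription factors, IRF4 (ENSCAFG00000009156) ranged from 261 to 534 CPM (median 480; mean 461 ± 77.9) in plasma cell-like cells. Other dendritic cells came second at 166 ± 53.9 CPM, 2.77-fold lower. The highest dendritic value, 353 CPM in healthy dog 2 (17 cells), exceeded the lowest plasma cell-like value, which was that of OS dog 5. The dendritic values of the other dogs lay between 122 and 184 CPM. Healthy dog 2 itself had 357 CPM in its 11 plasma cell-like cells. Monocytes carried 61.7 ± 17.2 CPM, from 30.0 to 88.0 CPM, and B cell-like cells 35.5 ± 19.0 CPM. IRF4 was therefore a gene of plasma cells and of dendritic cells and monocytes in this blood, and low in pDC-like cells (11.3 ± 4.49 CPM).

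PRDM1 (ENSCAFG00000003694) ranged from 356 to 499 CPM (median 432; mean 426 ± 45.8) in plasma cell-like cells. It was followed 5.88-fold lower by CD8 T or NK cells at 72.4 ± 43.0 CPM, where dogs lay between 33.3 and 208 CPM, and by CD4 T cells at 48.9 ± 15.5 CPM, other T cells at 41.4 ± 23.1 CPM and monocytes at 38.5 ± 50.6 CPM, all of which overlapped. B cell-like cells (7.77 ± 4.53 CPM) and pDC-like cells (2.09 ± 3.04 CPM) were among the lowest. XBP1 (ENSCAFG00000011954) ranged from 37.6 to 173 CPM (median 64.3; mean 75.7 ± 34.6), 3.78-fold above pDC-like cells (20 ± 6.70 CPM), and was present at between 5.51 and 11.2 CPM on average in all remaining classes with more than 1 dog. Its spliced form, the active one, cannot be told from the unspliced form in these counts.

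The survival receptor TNFRSF17 (ENSCAFG00000018852) was almost absent outside plasma cell-like cells. It ranged there from 221 to 461 CPM (median 329; mean 313 ± 67.2) and averaged 1.61 ± 1.34 CPM in B cell-like cells, 195-fold lower, and under 1 CPM in every other class. This fold depended on the upper limits per cell, since with 8000 genes and 60000 UMIs the means were 226 CPM in plasma cell-like and 4.30 CPM in B cell-like cells. RNA of its ligands was higher in monocytes: TNFSF13 (APRIL) averaged 195 ± 46.1 CPM there and TNFSF13B (BAFF) 64.6 ± 10.37 CPM, against 0.548 and 1.02 CPM in plasma cell-like cells. The related receptors split, with TNFRSF13B (TACI) at 157 ± 35.3 CPM in plasma cell-like and 25.1 ± 5.61 CPM in B cell-like cells of the same 14 dogs, and TNFRSF13C (the BAFF receptor) at 68.1 ± 24.6 against 613 ± 139 CPM. TNFRSF13B and TNFRSF13C were among the markers that named these classes, so their directions are no finding.

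The homing receptor CCR10 (ENSCAFG00000024958) ranged from 72.9 to 318 CPM (median 180; mean 179 ± 62.5). The next class by mean, other T cells, averaged 9.29 ± 18.4 CPM, a value that rested on OS dog 9 at 69.7 CPM, from 4 UMIs in 10 cells, just under the lowest plasma cell-like value. By the median over dogs other T cells (1.86 CPM) were below CD4 T cells (5.03 CPM) and other dendritic cells (4.44 CPM), so which class came second is not settled for CCR10. CD4 T cells averaged 4.70 ± 2.28 CPM. The ligands CCL28 and CCL27 averaged at most 2.74 CPM in any class with more than 1 dog.

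Counted over the 75659 cells analysed, the share of a gene's UMIs that fell in plasma cell-like cells differed between the genes and, within most of them, between dogs. Pooled over dogs it was 96.4% for MZB1, 94.2% for TNFRSF17, 89.99% for JCHAIN, 71.0% for TXNDC5, 68.5% for DERL3 and 61.8% for CCR10. It was 22.9% for IRF4, 19.5% for FKBP11, 16.8% for PRDM1 and 12.5% for XBP1. Per dog these shares ran from 2.5 to 91.3% for TXNDC5, from 4.17 to 86.2% for CCR10 and from 0.2 to 56.4% for PRDM1, so the pooled order need not hold in each dog. Most UMIs of the last 4 genes were in larger classes: monocytes held 58.4% of FKBP11, 52.4% of IRF4 and 33.0% of XBP1 UMIs, and CD4 T cells 34.9% of PRDM1, 31.3% of XBP1 and 28.6% of CCR10 UMIs. B cell-like cells held 10.7% and pDC-like cells 9.17% of DERL3 UMIs. Per dog the plasma cell-like share of JCHAIN ranged from 13.04 to 96.6% (median 89.96%), and the lowest dog was OS dog 2, which had 3 plasma cell-like cells.

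**Figure D2:**
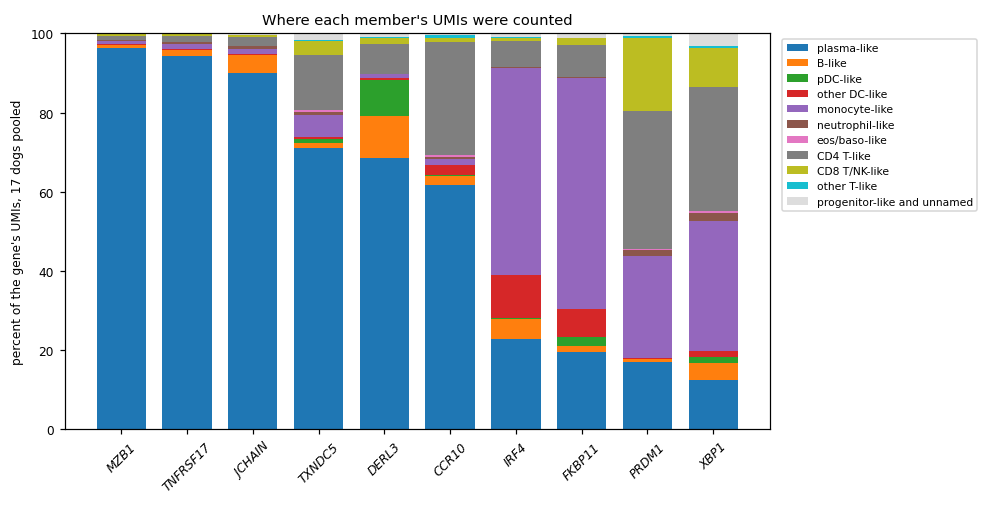
Share of each gene's UMIs by cell class, pooled over 17 dogs. The x axis lists the 10 genes, the y axis is the percent of the gene's UMIs in the cells analysed, and the colours are classes. The MZB1, TNFRSF17 and JCHAIN bars are filled at 96.4, 94.2 and 89.99% by plasma cell-like cells, while FKBP11 and IRF4 are filled mostly by monocytes (58.4 and 52.4%).

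At the level of single cells, a UMI of JCHAIN was found in 95.9% of plasma cell-like cells, of MZB1 and TXNDC5 in 93.4% each, of FKBP11 in 92.6%, of IRF4 in 91.8%, of PRDM1 in 91.2%, of TNFRSF17 in 81.8%, of DERL3 in 81.4%, of CCR10 in 65.2% and of XBP1 in 55.0%. Depth mattered for these shares, since the median plasma cell-like cell held 14998 UMIs, a B cell-like cell 4018, a CD4 T cell 5657 and a pDC-like cell 14660. After each cell was thinned to 1000 UMIs, which left out 10 of the 633 plasma cell-like cells and 53 of the 6795 B cell-like cells, JCHAIN remained detected in 75.6% of plasma cell-like, 2.79% of B cell-like, 0.341% of CD4 T and 0.408% of pDC-like cells (10.9, 1.94 and 4.49% in the last 3 without thinning). CD4 T cells are not known to use JCHAIN and were taken as background, an assumption that these shares do not test. The B cell-like share was above the CD4 T cell share. The pDC-like share after thinning rested on too few of 245 cells to be set against that of CD4 T cells. MZB1 was left in 65.8%, FKBP11 in 53.9%, TXNDC5 in 47.0% and XBP1 in 7.06% of thinned plasma cell-like cells. In pDC-like cells FKBP11 was found in 93.5% and DERL3 in 61.2% of cells, and in 22.4 and 5.71% after thinning.

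The genes occurred together in the same cells. The median plasma cell-like cell held UMIs of 9 of the 10 genes, and 94.3% of these cells held at least 5 (30.5% after thinning, with a median of 4). IRF4 and PRDM1 were found together in 86.6% of plasma cell-like and 0.559% of B cell-like cells. IRF4, PRDM1 and XBP1 were all 3 found in 319 plasma cell-like cells (50.4%), 91 of 15052 monocytes (0.605%) and 0 of 6795 B cell-like cells, which allows a share of up to 0.0441%, a limit that covers counting error only and bounds cells with UMIs of all 3 genes, not cells that express them. The shares were not thinned, and B cell-like cells were shallower than plasma cell-like cells. Cells with at least 5 of the genes were few in the other named classes: 9 B cell-like cells, 16 monocytes, 3 pDC-like, 3 other dendritic and 3 CD4 T cells and 1 neutrophil, besides 14 of 1183 barcodes in the clusters of mixed droplets that were set aside. Those 9 B cell-like cells, from 8 dogs, carried 12.99% of the JCHAIN UMIs of their class, and in the 742 B cell-like cells with JCHAIN the count was a single UMI in 77.5%. The largest count in 1 plasma cell-like cell was 444 JCHAIN UMIs.

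Plasma cell-like cells fell into a cycling cluster of 132 cells (20.9%) and a second cluster of 501 cells. A UMI of the proliferation gene MKI67 was found in 84.1% and 53.9% of their cells, at similar median depths of 15382 and 14957 UMIs, and the summed level of 8 cycling genes was 1857 ± 605 against 141 ± 27.3 CPM in the 5 dogs (healthy 3 and 4, OS 6, 8 and 9) with at least 10 cells of both. In each of these 5 dogs the cycling cells had the lower level of JCHAIN (1469 ± 232 against 2586 ± 624.7 CPM), MZB1 (967 ± 430 against 1758 ± 353), FKBP11 (616 ± 174 against 1072 ± 206) and DERL3 (131 ± 34.6 against 261 ± 68.8), ratios of between 0.504 and 0.575. PRDM1 did not differ in this way, at 424 ± 119 against 416 ± 45.4 CPM, lower in 3 of 5 dogs, and IRF4 was lower in 3 of 5 dogs at 0.818 of the level. TXNDC5, TNFRSF17, XBP1 and CCR10 were lower in 4 of 5 dogs, at ratios of 0.771, 0.795, 0.736 and 0.772. These ratios describe clusters of the same cells and carry no test.

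Over the 11 dogs (4 healthy, 7 with OS) with at least 25 plasma cell-like cells, the coefficient of variation between dogs was 10.7% for PRDM1, 15.8% for IRF4, 19.6% for TNFRSF17, 21.3% for FKBP11, 22.03% for DERL3, 23.5% for JCHAIN, 24.7% for MZB1, 30.8% for XBP1, 32.3% for CCR10 and 55.5% for TXNDC5. The value for IRF4 rested on OS dog 5 at 261 CPM, with the other 10 dogs between 459.96 and 534 CPM. XBP1 was counted in 13 to 132 UMIs per dog and PRDM1 in 120 to 699, and the part of counting error in these values was not separated from differences between dogs. TXNDC5 varied 5.02-fold, and both groups held high and low dogs: the highest were OS dog 5 (2005 CPM), healthy dog 7 (1596 CPM) and OS dog 7 (1328 CPM), and the lowest OS dog 4 (399 CPM). CCR10 was lowest in OS dog 10 at 72.9 CPM and highest in healthy dog 6 at 318 CPM.

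**Figure D3:**
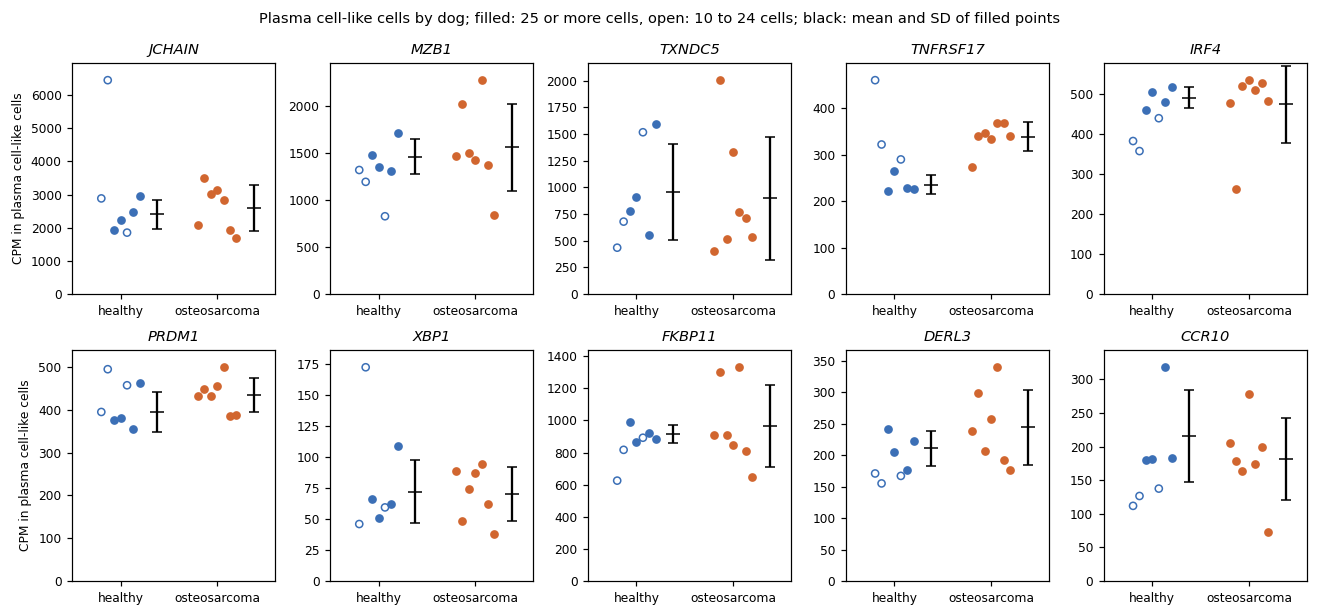
Level of each gene in plasma cell-like cells per dog. Each panel is 1 gene, the x axis gives the group (healthy or OS), the y axis is CPM from 0, filled points are the 11 dogs with at least 25 cells, open points dogs with 10 to 24 cells, and the black mark and bar are the mean ± SD of the filled points. TNFRSF17 is the panel in which filled points of the groups do not overlap (healthy 221 to 265 CPM, OS 274 to 369 CPM), and its open healthy points lie higher, at 290, 322 and 461 CPM. How many of all genes show such a gap was not counted.

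Among B cell-like cells JCHAIN was not evenly spread. A cluster led by MS4A1, TXLNB and RSPO2 (490 cells) averaged 94.1 ± 43.8 CPM in 15 dogs, from 44.9 to 188 CPM, and also held the most TNFRSF17 of any B cell-like cluster (8.46 ± 7.64 CPM). A cluster led by VPREB3 and SYT1 (560 cells) had the least JCHAIN, 6.43 ± 7.17 CPM in 15 dogs, and the most DERL3, 29.7 ± 18.0 CPM. The highest mean, 282 CPM, belonged to a cluster led by TNFRSF13C, SLC16A11 and FAM43A (400 cells, 13 dogs), and it rested on single cells: OS dog 2 reached 1805 CPM with 81 of its 88 JCHAIN UMIs in 1 of 11 cells, and healthy dog 7 reached 1483 CPM with 44 of its 78 UMIs in 1 of 17 cells, against a median of 38.9 CPM.

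PRDM1 and IRF4 varied between clusters of the other classes as well. Within CD4 T cells PRDM1 averaged 94.8 ± 39.3 CPM in a cluster led by NTRK2 and ADAM12 and 85.4 ± 28.4 CPM in one led by CTLA4, TOX2 and TNFRSF4 (n = 17 dogs each), while the pooled level in a cluster with the naive T cell genes CCR7 and LEF1 among its leading genes was 11.4 CPM. Among cytotoxic cells it was highest, at 141 ± 55.3 CPM in 9 dogs, in a cluster led by PI3, PTPRM and KLRF1. Monocyte PRDM1 was 118 CPM in healthy dog 1, 150 CPM in OS dog 1 and 154 CPM in OS dog 2, and between 1.45 and 46.0 CPM in the other 14 dogs. The same 3 dogs had IL1B, an inflammatory cytokine, at 1046, 1929 and 1384 CPM in monocytes, but OS dog 10 reached 1080 CPM of IL1B with 22.01 CPM of PRDM1, and the relation was not tested. These 3 dogs had 55.6, 61.7 and 57.2% of their monocytes in 1 cluster, which held 57.9% in healthy dog 5 (PRDM1 at 14.1 CPM) and 0 to 32.0% in the others, so the dogs' levels compare different mixtures of monocyte clusters. IRF4 in dendritic cells was 235 ± 32.7 CPM (n = 9 dogs) in a cluster led by GPHA2 and FGF12, against 161 ± 37.3 (n = 9) and 155 ± 38.4 CPM (n = 8) in a pair of clusters led by PKIB and MRC1.

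For JCHAIN, MZB1 and TNFRSF17, which T and NK cells are not known to use, the counts in those cells were taken as background. This is an assumption, since the source of these counts is not known. JCHAIN averaged 2.95 ± 1.37 CPM in T and NK cells, from 0.746 to 6.05 CPM over 17 dogs. For each 100 JCHAIN UMIs, plasma cell-like cells held 60.2 of MZB1 and 11.8 of TNFRSF17, and T and NK cells 27.3 and 8.71. For the other genes the T and NK cells held far more per 100 JCHAIN UMIs than plasma cell-like cells did: 264 against 33.7 of TXNDC5, 195 against 19.0 of IRF4, 1680 against 16.6 of PRDM1, 308 against 2.91 of XBP1, 610 against 37.7 of FKBP11, 38.4 against 9.15 of DERL3 and 114 against 7.40 of CCR10. Only MZB1 and TNFRSF17 were thus scarcer, relative to JCHAIN, in T and NK cells than in plasma cell-like cells.

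Whether a dog with more plasma cell RNA also had higher counts in its T and NK cells was tested for each gene against the plasma cell-like UMIs per 1000000 UMIs of the dog (10 relations, 17 dogs, two-sided permutation tests with Benjamini-Hochberg adjustment). None passed an adjusted p of 0.05. The strongest were MZB1 (r = 0.73, permutation p = 0.0165, adjusted p = 0.0823, rho = 0.42 with adjusted p = 0.397) and DERL3 (r = 0.60, permutation p = 0.00940, adjusted p = 0.0823, rho = 0.46 with adjusted p = 0.397), and JCHAIN gave r = 0.40 (permutation p = 0.136, adjusted p = 0.341) and rho = 0.39 (permutation p = 0.121, adjusted p = 0.397). Without the 2 dogs farthest from the median, OS dog 8 and healthy dog 3, DERL3 fell to r = 0.28 (permutation p = 0.313) and JCHAIN to r = 0.26 (permutation p = 0.348), and MZB1 stayed at r = 0.70 (permutation p = 0.00462). Within groups, MZB1 gave r = 0.24 in 7 healthy dogs (exact permutation p = 0.585) and r = 0.92 in 10 dogs with OS (permutation p = 0.0316, adjusted p = 0.302), where it rested on OS dogs 8 and 9 (r = 0.47 without them). The plasma cell-like UMIs were those of cells within the upper limits per cell, so RNA of larger plasma cells was not counted. With the wider limits the class went from 633 to 1431 cells, and the largest number in a dog from 100 to 330.

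A second family of 20 relations, chosen after the values had been seen, compared a dog's level of each gene between CD4 T cells and monocytes (17 dogs) and between plasma cell-like and T or NK cells (14 dogs). XBP1 varied in parallel in CD4 T cells and monocytes, with r = 0.88 (permutation p = 4e-05, adjusted p = 0.000800) and rho = 0.82 (permutation p = 1e-04, adjusted p = 0.00200). It held without healthy dog 2 and OS dog 3 (r = 0.80) and in dogs with OS (r = 0.95, permutation p = 8e-05). In healthy dogs it did not pass after adjustment (r = 0.93, exact permutation p = 0.0151, adjusted p = 0.121, and r = 0.48 without healthy dogs 2 and 4). JCHAIN gave r = 0.69 and rho = 0.74 (permutation p = 0.00190 and 0.00122, adjusted p = 0.0190 and 0.0105; r = 0.54 without healthy dog 4 and OS dog 2), and within groups r = 0.72 (healthy, exact permutation p = 0.112) and r = 0.69 (OS, permutation p = 0.0255, adjusted p = 0.127). TXNDC5 gave r = 0.67 and rho = 0.72 (permutation p = 0.00642 and 0.00158, adjusted p = 0.0278 and 0.0105), which no longer held without OS dog 3 and healthy dog 5 (r = 0.48, permutation p = 0.0860). FKBP11 gave r = 0.64 (adjusted p = 0.0278, r = 0.29 without healthy dog 2 and OS dog 3), and its rho of 0.48 did not pass (permutation p = 0.0531, adjusted p = 0.152).

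Between plasma cell-like and T or NK cells, TXNDC5 gave r = 0.71 (permutation p = 0.00694, adjusted p = 0.0278) and rho = 0.56 (permutation p = 0.0376, adjusted p = 0.152). It was r = 0.66 (permutation p = 0.0374) without OS dog 5 and healthy dog 7. In healthy dogs it was r = 0.73 (exact permutation p = 0.0746, adjusted p = 0.249) and fell to 0.18 without healthy dogs 5 and 7. In dogs with OS it was r = 0.96 (exact permutation p = 0.0365, adjusted p = 0.146) and turned to -0.39 without OS dogs 5 and 7. XBP1 gave r = 0.83 (adjusted p = 0.0326), which rested on healthy dogs 2 and 7 (r = 0.30 without them), and its rho of 0.56 did not pass (permutation p = 0.0388, adjusted p = 0.152). The remaining 14 relations had adjusted p-values of 0.0618 or more for r. The classes of a dog came from 1 library, and the part of the library in these relations was not tested.

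**Figure D4:**
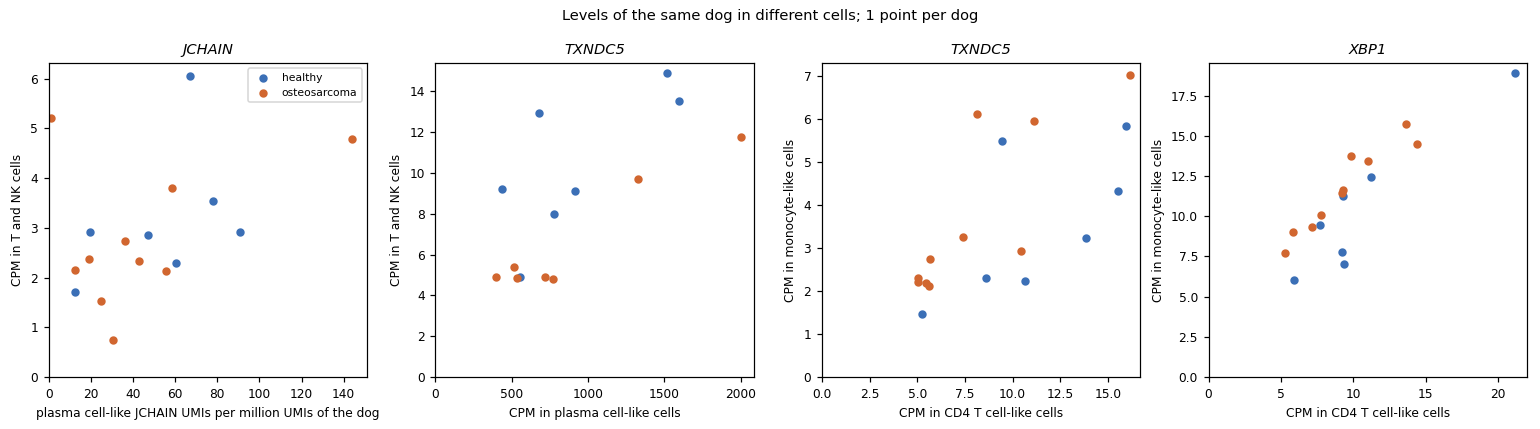
Levels in 1 class against another, 1 point per dog, coloured by group. The panels plot JCHAIN in T and NK cells (CPM) against plasma cell-like JCHAIN UMIs per 1000000 UMIs of the dog, TXNDC5 in T and NK cells against plasma cell-like cells, and TXNDC5 and XBP1 in monocytes against CD4 T cells (all CPM). XBP1 (r = 0.88) follows a line over all dogs, JCHAIN (r = 0.40) scatters widely, and of the TXNDC5 panels (r = 0.71 and 0.67) the one of monocytes against CD4 T cells falls to r = 0.48 without 2 dogs.

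LMAN1, SEC11C, PDIA4, TNFRSF13B and MKI67 of the lists below were also among the markers that named the plasma cell-like class, and PAX5, EBF1, MS4A1 and CD22 among those that named the B cell-like class, so their direction is no finding. The 10 genes were set beside 8 lists of related genes by the ratio of plasma cell-like to B cell-like levels in the 14 dogs, on the scale of log2 of mean CPM + 1. Among all 11251 genes at 1 CPM or more in either class, 854 (7.59%) were higher in plasma cell-like cells in every dog, 2912 (25.9%) were lower in every dog and the median log2 ratio was -0.47. All 10 genes of antibody secretion were higher in every dog, with a median log2 ratio of 5.91. All of them were chosen by name with earlier results of these data known, and some are in the study's short list, made from the healthy dogs. Their direction is therefore no finding. The ER machinery followed: 17 of 17 genes of ER translocation and signal peptide cleavage were higher in every dog (median 2.54), with SEC11C, the signal peptidase subunit, at 3119 ± 493.3 against 534 ± 97.5 CPM, SSR3 at 1701 against 280 CPM, SEC61B of the translocon at 1602 against 89.9 CPM and SSR4 at 1504 against 302 CPM.

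ER chaperones and disulfide enzymes were higher in every dog for 15 of 17 genes (median log2 ratio 3.23). HSP90B1, the chaperone that MZB1 assists, stood at 4494 ± 975 against 292 ± 35.1 CPM, SDF2L1 at 1029 against 89.4 CPM, MANF at 699 against 50.8 CPM and DNAJC3 at 633 against 139 CPM. The exceptions were the ER oxidases ERO1A (16.1 against 26.0 CPM) and ERO1B (85.6 against 114 CPM), higher in plasma cell-like cells of 1 and 2 of 14 dogs, and they are named here after their values were seen. Of 14 genes of the unfolded protein response and ER-associated degradation 8 were higher in every dog (median 1.18), among them HERPUD1 (502 against 82.2 CPM), DERL1 (326 against 113 CPM) and ATF4 (287 against 141 CPM), EIF2AK3 (PERK) was not (275 ± 239 against 336 ± 73.7 CPM), and ATF6 was lower in every dog (69.4 against 105 CPM). ERN1 (IRE1), the enzyme that splices XBP1 RNA, was also named after its values were seen and stood at 153 ± 52.9 against 7.91 ± 5.38 CPM.

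In ER to Golgi transport 10 of 14 genes were higher in every dog (median 1.54), with the cargo lectin LMAN1 at 998 against 18.6 CPM, ARF4 at 207 against 81.4, COPB2 at 165 against 53.6 and SEC24D at 158 against 8.04 CPM. The B cell program went the other way, with 7 of 8 genes lower in every dog and a median of -5.46: MS4A1 72.5 against 272 CPM, BACH2, a repressor of PRDM1, 32.3 against 4910, and EBF1 16.7 against 496 CPM. Since PAX5, EBF1, MS4A1 and CD22 of this list were markers of the B cell-like class, its count and median depended in part on the naming of the class. Homing receptors split, with 2 of 8 higher (ITGA4 848 against 477 CPM, ITGB7 155 against 38.2 CPM, the chains of the gut integrin) and 4 lower (S1PR1 52.9 against 109, CXCR4 4.43 against 233, CCR7 0.490 against 96.1 and CXCR5 0.0676 against 16.96 CPM, the last 3 named after their values were seen). Of 8 cycling genes 4 were higher in every dog (median 3.23), with MKI67 at 149 against 1.53, ASPM at 42.9 against 4.28, TPX2 at 35.04 against 5.27 and DIAPH3 at 33.6 against 2.10 CPM. Of the 3 detected genes of the APRIL and BAFF list 1 was higher and 1 lower (TACI and the BAFF receptor, above), with a median of -0.58.

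**Figure D5:**
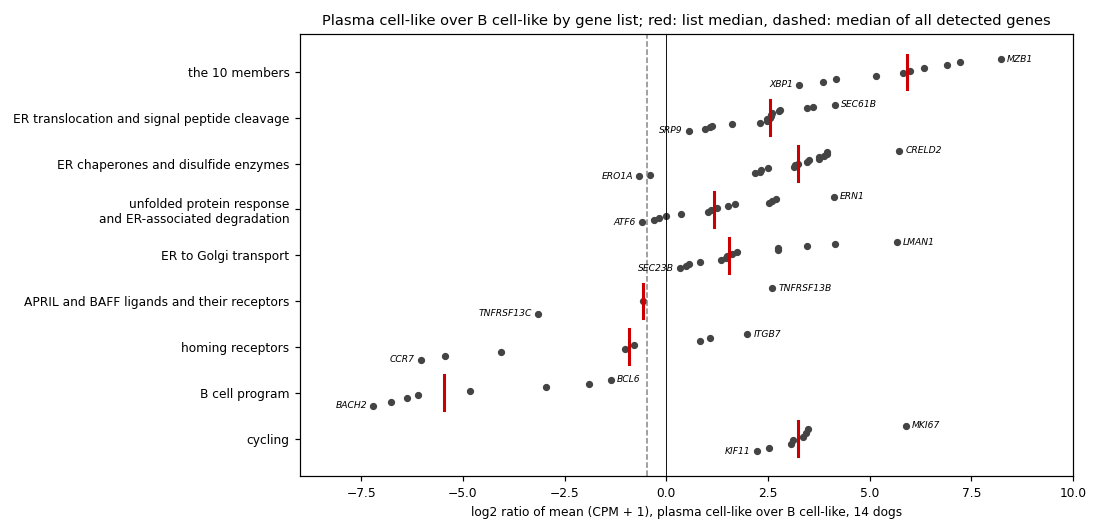
Ratio of plasma cell-like to B cell-like levels for the genes of each list. The y axis lists the gene lists, the x axis is the log2 ratio of mean (CPM + 1) over 14 dogs, each point is 1 gene, red marks are list medians and the dashed line is the median of all genes (-0.47). The medians of the genes of antibody secretion (5.91) and of the ER lists lie right of the line, with single ER genes such as ERO1A (-0.66) and ATF6 (-0.59) left of it, and the median of the B cell program (-5.46) lies far left.

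Genes whose levels followed JCHAIN most closely over 11 classes, by Pearson r of log2(CPM + 1) among 10207 genes, were CENPF (0.957), TLCD4 (0.948), IGLV2-33 (0.947), SPC24 (0.929) and TNFRSF17 (0.922), with 21 rows known only by an identifier ranked above the fifth. For IRF4 they were SCIMP (0.908), IDH2 (0.893), DEPTOR (0.890), CYB5D2 (0.869) and FKBP11 (0.862), with 1 such row. SCIMP was present in plasma cell-like (65.8 CPM), other dendritic (52.5 CPM) and B cell-like cells (39.6 CPM). CENPF stood at 109 CPM in plasma cell-like cells and at 2.90 CPM or less in the other classes with more than 1 dog. The class of CD34 positive progenitors was 13 cells of 1 dog, with JCHAIN at 29.2 CPM from 5 UMIs. The classes share libraries and differ in depth, so these values are a description.

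The study asked how leukocytes of dogs with OS differ from those of healthy dogs, and none of the 10 genes passed, where tested, in plasma cell-like, B cell-like, pDC-like, CD4 T, CD8 T or NK cells, monocytes, neutrophils or all cells added up. Other dendritic cells, eosinophils or basophils and other T cells were not tested. Counts were added up over the cells of a class in each dog that had 25 cells or more, and compared with edgeR's quasi-likelihood test at an adjusted p of 0.01 and an absolute log2 fold change of 0.58. Age, which differed between the groups, was not in this model and entered only as an alternative. In plasma cell-like cells (4 healthy dogs, 7 with OS) none of 9805 genes passed (0%), although 345 (3.52%) fell under an unadjusted p of 0.05, and DESeq2 called 3, none of them among the 10. In B cell-like cells (7 and 10 dogs) none of 12503 genes passed (0%) in edgeR or in DESeq2, and 614 (4.91%) fell under an unadjusted edgeR p of 0.05. The 3 genes called by DESeq2 in plasma cell-like cells, named after their values were seen, were known by identifier only: ENSCAFG00000005494 and ENSCAFG00000046583 were higher and ENSCAFG00000046600 was lower in OS.

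The largest difference among the 10 genes in plasma cell-like cells was that of TNFRSF17. It stood at 221, 265, 229 and 226 CPM in healthy dogs 3, 4, 6 and 7, and at 274, 340, 347, 335, 368, 369 and 341 CPM in OS dogs 4 to 10. The log2 fold change, OS minus healthy, was 0.51 ± 0.13 (SE), with an edgeR unadjusted p of 0.000928 and an adjusted p of 0.910 over 9805 genes, so it did not pass, and DESeq2 gave an adjusted p of 0.0165, also short of the threshold. The fold change kept its sign in each alternative and with each dog left out (0.47 to 0.56), and was 0.29 when cells of up to 60000 UMIs were kept and 0.36 when dogs with 10 to 24 cells entered. The 3 healthy dogs with 11, 11 and 17 cells had 461, 322 and 290 CPM, within or above the OS range. TNFRSF17 was thus higher in each of the 7 dogs with OS than in each of the 4 healthy dogs with at least 25 cells, and not than in all 7 healthy dogs. Among the 9805 genes, the number that separated these dogs in the same way was not counted. The separation is therefore not read as particular to TNFRSF17. OS dogs 1, 2 and 3 had 9, 3 and 3 plasma cell-like cells, with 44, 0 and 1 TNFRSF17 UMIs, too few cells for a level.

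The other 9 genes had log2 fold changes in plasma cell-like cells between -0.28 ± 0.23 (SE; CCR10) and 0.20 ± 0.18 (DERL3), with edgeR adjusted p-values of 1.000. JCHAIN averaged 2402 ± 434 CPM in 4 healthy dogs and 2594 ± 690 CPM in 7 with OS (log2 fold change 0.08 ± 0.18), MZB1 1459 ± 184 and 1555 ± 464 CPM (0.07 ± 0.19), and TXNDC5 959 ± 449 and 896 ± 575 CPM (-0.15 ± 0.33). Their ranges overlapped between groups. These standard errors were worked back from the fold change and F statistic of each edgeR test and are approximate. That of TXNDC5 was the widest of the 10. Lists of related genes gave no call either: of 17 ER translocation genes 3 had a positive log2 fold change in plasma cell-like cells (median -0.09), of 17 chaperones 6 (median -0.09), and of 8 cycling genes 1 (median -0.48, with KIF11, named after its values were seen, at -0.87 and an edgeR unadjusted p of 0.00492), while the median of all genes was -0.01.

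In B cell-like cells IRF4 had the largest difference of the 10 genes. It ranged from 18.8 to 31.8 CPM (median 23.99) in 7 healthy dogs and from 20.1 to 80.5 CPM (median 32.8) in 10 with OS, and the groups overlapped. The log2 fold change was 0.71 ± 0.24 (SE), with an edgeR unadjusted p of 0.00718 and an adjusted p of 0.966, and 0.51 to 0.80 with each dog left out. DERL3 in B cell-like cells ranged from 5.35 to 16.4 CPM in healthy dogs and from 8.39 to 22.1 CPM in dogs with OS (0.53 ± 0.24, edgeR unadjusted p = 0.0381, adjusted p = 0.966). Neither passed, and the other 8 genes lay between -0.31 and 0.40 on the log2 scale.

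In pDC-like cells too few dogs had 25 cells for the test, and with at least 10 cells (4 healthy, 6 with OS) edgeR called 2 of 8867 genes (0.0226%), PI4KA and ENSCAFG00000005494, both higher in OS, named after their values were seen and neither among the 10, and 4.65% of genes fell under an unadjusted p of 0.05. The 7 genes of antibody secretion that could be tested there had adjusted p-values of 1.000, with DERL3 at -0.27 ± 0.26 and FKBP11 at 0.02 ± 0.19 on the log2 scale. In CD4 T cells PRDM1 ranged from 30.5 to 60.4 CPM (median 35.3) in healthy dogs and from 40.6 to 87.8 CPM (median 47.8) in dogs with OS (0.52 ± 0.17, edgeR unadjusted p = 0.00584, adjusted p = 0.995), and in CD8 T or NK cells from 33.3 to 107 and from 42.3 to 208 CPM (0.56 ± 0.30, edgeR unadjusted p = 0.0782, adjusted p = 1.000). TXNDC5 in CD4 T cells was 0.49 lower on the log2 scale (-0.49 ± 0.22, edgeR unadjusted p = 0.0387, adjusted p = 0.995). The background at an unadjusted p under 0.05 was 3.89% of 14567 genes in CD4 T cells, 4.27% of 13059 in CD8 T or NK cells, 5.63% of 14127 in monocytes and 8.69% of 10685 in neutrophils. edgeR called 0 genes (0%) in each of these 4 classes, and DESeq2 called 0 except in monocytes, where it called MSANTD3-TMEFF1 and ENSCAFG00000023887, named after their values were seen.

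Neutrophil JCHAIN had the largest fitted fold change of the 10 genes over the classes (2.71 ± 1.196 on the log2 scale, edgeR unadjusted p = 0.0325, adjusted p = 0.541), and it rested on 1 barcode. OS dog 5 had 106 CPM, and all 123 of its JCHAIN UMIs in neutrophils were in 1 of 343 cells, while the other 9 dogs with OS lay between 0 and 3.18 CPM and healthy dogs between 0 and 8.88 CPM. That barcode was the neutrophil named above with at least 5 of the genes, and DESeq2 gave a fold change of the opposite sign (-1.02 ± 0.93).

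Summed over all cells of a dog, in which fewer cells of a type and less RNA per cell cannot be told apart, no gene of the 10 passed (edgeR calls among 16249 genes came to 0%, 932 or 5.74% fell under an unadjusted p of 0.05, and DESeq2 called 3, BCAR3, MSANTD3-TMEFF1 and SLCO5A1, named after their values were seen). JCHAIN ranged from 19.6 to 96.7 CPM (median 63.7) in healthy dogs and from 9.65 to 149 CPM (median 36.0) in dogs with OS, and MZB1 from 6.29 to 70.9 (median 32.7) and from 0.997 to 118 CPM (median 16.5). OS dog 8, with 88 plasma cell-like cells, was the highest. The log2 fold changes lay between -0.54 ± 0.36 (TXNDC5, edgeR adjusted p = 0.872) and 0.45 ± 0.25 (PRDM1, edgeR adjusted p = 0.863).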

How the data were processed

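Blood leukocytes of 7 healthy dogs and 10 dogs with osteosarcoma were profiled by droplet single-cell RNA sequencing, 1 matrix per dog. The deposited values are raw UMI counts per gene and barcode, which per the labels and the study's methods the authors made with Cell Ranger 7.0.0 on CanFam3.1 with an Ensembl annotation filtered by gene type. The authors ran the alignment with and without intronic reads, and which run the deposited counts come from is not given in the sources used here. Groups came from the disease state given in the labels.

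Barcodes with 200 to 4500 genes, 500 to 20000 UMIs and under 10% mitochondrial UMIs were kept, and doublets were removed at 0.8% per 1000 barcodes. Total counts ran from 7740230 to 56510134 UMIs per dog, which sets the counting error of each level. Cells were clustered with scanpy 1.11.5 (2000 variable genes without the 10 genes, 30 components, 20 neighbours, Leiden resolution 1) under Python 3.11.15, and clusters were named from fixed markers with thresholds set after the clusters had been seen. Levels are CPM of summed UMIs in dogs with at least 10 cells of a class. Groups were compared with edgeR 4.0.16 (R 4.3.3; quasi-likelihood test, TMM, at least 25 cells per dog and 10 counts, Benjamini-Hochberg adjustment), called at an adjusted p under 0.01 and an absolute log2 fold change over 0.58. DESeq2 1.42.0, other normalizations, filters, covariates, clusterings and left-out dogs were alternatives. Standard errors beside edgeR fold changes were worked back from the fold change and F statistic of each test and are approximate. Scripts were tested on simulated data. Intervals and limits cover counting error only.

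The 10 genes and the gene lists were chosen with earlier results of these data known. Named besides the 10 were the 4 genes of each list with the highest mean CPM in plasma cell-like cells, list genes called in a comparison, the 5 genes with a symbol most like JCHAIN and IRF4 over the classes, and up to 3 called genes per direction at a mean of 10 CPM or more. Some genes that the rule names are not reported here. Positions of the genes and their sequences were not analysed here.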

Additional observations from a re-analysis of the deposited data

Results flagged for a closer look

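Of 99 groups of 4 to 10 dogs examined, 29 held a dog set far apart from the rest of its group, where chance gives about 1 in 20 for normally distributed values. That rate was not measured for counts as low as some of these, so the number is not set against it. In plasma cell-like cells these were JCHAIN in healthy dog 2 (6448 CPM, 11 cells, others 1851 to 2957), TNFRSF17 in healthy dog 1 (461 CPM, 11 cells, others 221 to 322) and in OS dog 4 (274 CPM, others 335 to 369), IRF4 in OS dog 5 (261 CPM, others 477 to 534) and CCR10 in healthy dog 6 (318 CPM, others 112 to 183).

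In B cell-like cells they were JCHAIN in healthy dog 7 (87.0 CPM, others 20.8 to 43.2) and in OS dog 2 (151 CPM, others 10.9 to 42.3), the dogs whose single cells are given in the report, MZB1 and TXNDC5 in OS dog 5 (12.8 CPM each, from 4 UMIs), FKBP11 in healthy dog 2 (7.78 CPM, others 22.02 to 27.9) and DERL3 in OS dog 9 (22.1 CPM, others 8.39 to 14.7). In pDC-like cells TXNDC5 in OS dog 5 stood at 72.9 CPM (others 14.7 to 35.3) and FKBP11 in healthy dog 4 at 223 CPM (others 289 to 297), while JCHAIN in healthy dog 4 (19.0 CPM), TNFRSF17 in OS dog 8 (4.99 CPM) and CCR10 in healthy dog 3 (2.83 CPM) rested on 4, 1 and 1 UMIs.

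In neutrophils OS dog 5 stood apart for JCHAIN (106 CPM), MZB1 (18.9 CPM), TXNDC5 (36.1 CPM), TNFRSF17 (6.87 CPM) and DERL3 (1.72 CPM), and all of its JCHAIN UMIs were in 1 barcode. IRF4 and FKBP11 in OS dog 6 (31.1 CPM from 5 UMIs and 37.3 CPM from 6), JCHAIN in healthy dog 4 (8.88 CPM from 2) and CCR10 in healthy dog 7 (0.968 CPM from 3) were also apart. Over all cells OS dog 8, with 88 plasma cell-like cells, was apart for JCHAIN (149 CPM, others 9.65 to 62.9), MZB1 (118 CPM), TXNDC5 (42.8 CPM) and DERL3 (19.6 CPM).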

How the results depend on the processing

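No gene of the 10 passed in any class tested under the alternatives run, and the smallest adjusted p was 0.0165 (DESeq2, TNFRSF17 in plasma cell-like cells). Log2 fold changes kept their sign in 405 of 450 values with a dog left out and in 457 of 494 under other settings, and mean levels stayed within the spread between dogs in 235 of 240. Counts of called genes in plasma cell-like cells were 3 with DESeq2, 1 without a filter beyond 1 count (ENSCAFG00000005494), 1 with sex as a covariate (ENSCAFG00000046583) and 0 to 1 with a dog left out (ENSCAFG00000005494 without OS dog 8), and DESeq2 called 2 in monocytes and 3 in all cells. The causes were not tested. Leaving out the 2 farthest dogs gave 1 relation past the threshold among the 10 of T and NK cells, and turned r to -0.31 for IRF4, 0.26 for PRDM1 and 0.19 for XBP1. The share of cells with a UMI was highest in plasma cell-like cells for all 10 genes after thinning and for 9 without it, FKBP11 being higher in pDC-like cells. With 11 dogs in the plasma cell-like comparison and few UMIs of most genes elsewhere, small differences may be missed.

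The replicate numbers paired different dogs. Same-numbered dogs deviated together with correlations of -0.145 to 0.216 in B cell-like cells (1 of 7 pairs over 0.1, none best with its own number) and -0.348 to 0.357 in all cells (3 over 0.1, 1 best with its own number). In plasma cell-like cells only numbers 4, 6 and 7 had dogs of both groups with at least 25 cells, so the block fit there rested on these pairs of different dogs. With the replicate block 17 of 9805 genes were called in plasma cell-like cells, and MZB1 turned to -0.035 and FKBP11 to -0.059 there. JCHAIN turned to -0.077 and MZB1 to 0.13 in B cell-like cells, and TNFRSF17 to -1.03 in all cells.

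Other turned log2 fold changes in plasma cell-like cells were JCHAIN -0.071, IRF4 0.12, XBP1 -0.036 and CCR10 0.0051 at 10 cells per dog, MZB1 -0.012, IRF4 0.035 and FKBP11 -0.015 at resolution 1.5, IRF4 0.0071 with age, IRF4 0.13 with the wider upper limits, XBP1 -0.020 with seed 2 and XBP1 -0.0027 with doublets kept. In B cell-like cells JCHAIN was -0.14 at resolution 0.5, with seed 2 and with the 10 genes in the clustering, MZB1 0.025 without correction across dogs, MZB1 0.85, TXNDC5 0.12, TNFRSF17 1.36 and CCR10 0.24 with the wider limits, and TXNDC5 0.045 and TNFRSF17 0.60 with doublets kept. In all cells MZB1, IRF4 and DERL3 were 0.17, 0.13 and 0.062 with age and 0.23, 0.046 and 0.11 with the wider limits, and MZB1 and IRF4 0.0088 and 0.013 with doublets kept. Neutrophil JCHAIN was -1.02 in DESeq2, -0.67 with age and -1.23 with the 10 genes in the clustering. The wider limits moved mean levels to 226 CPM (TNFRSF17) and 339 CPM (PRDM1) in plasma cell-like and to 14.3 (MZB1), 11.2 (TXNDC5) and 4.30 CPM (TNFRSF17) in B cell-like cells.

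With each dog left out in turn, plasma cell-like log2 fold changes ran from -0.027 to 0.20 (JCHAIN), -0.050 to 0.17 (MZB1), -0.48 to 0.22 (TXNDC5), -0.10 to 0.039 (IRF4), -0.15 to 0.26 (XBP1) and -0.042 to 0.12 (FKBP11), B cell-like ones from -0.48 to 0.34 (JCHAIN), -0.28 to 0.25 (MZB1), -0.36 to 0.17 (TNFRSF17) and -0.092 to 0.15 (FKBP11), and those in all cells from -0.71 to 0.26 (MZB1), -0.30 to 0.33 (TNFRSF17), -0.16 to 0.11 (IRF4) and -0.57 to 0.17 (DERL3). Dogs were left out for these 3 only, and pDC-like cells could not be fitted at 25 cells per dog.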
